A study of Mus musculus with 16 samples.

Results

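Gene expression was compared between haematopoietic stem cells (HSCs) from the endosteal and from the central bone marrow (BM) of WT mice. The comparison used the 4 WT endosteal and the 4 WT central RNA-Seq libraries, 8 of the 16 samples that the series labels, and every gene with enough reads to be tested. The mice were of the C57/Bl6 strain, carried the Gfra2 WT genotype and received no treatment, and their age is not given in the labels. Marrow and bone fractions of tibia, femur and humeri were separated, so that the marrow fraction is the central BM and the bone fraction the endosteal BM. Each library was made from a pool of 30 live cells with the surface phenotype of HSCs, which is lin-, Sca1+ and cKit+ (LSK), CD48- and CD150+. The other libraries of the series, labelled Gfra2-/- (4 endosteal and 3 central ones used here), lack the receptor GFRα2 by label and are brought in only to show where the WT difference stands apart. They share no library with the WT comparison, and endosteal libraries B and D of them held 47 and 9 counts of Gfra2, against their label. The libraries of each group are lettered A to D in the order of the count table. No label says whether libraries of equal letter are paired, and they were not treated as pairs. The labels do not say whether the libraries of a group come from separate mice. The study's legend for these data gives 4 biological replicates, whereas its methods give 3 sequenced replicates per condition. The p-values therefore measure the spread between these libraries, which may be in part technical.

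HSCs sit in niches formed by stromal, vascular and bone-lining cells, and the marrow next to the bone surface (endosteal BM) and the marrow in the middle of the cavity (central BM) are thought of as different niches. Dormant HSCs keep protein synthesis and mitochondrial activity low, and genes for ribosomes, mitochondria and cell division go up when they are activated. These background facts are the reason for looking at the gene groups below and are not results of these data.

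Depth differed with the compartment. Reads counted on genes numbered 4416648, 14003634, 10781889 and 11685985 in endosteal libraries A to D and 1230252, 3367289, 826487 and 3018939 in central libraries A to D. Central libraries A and C held fewer than 1500000 reads on genes, a limit that is stricter than the quality cut-off of the study, which also takes in uniquely mapped reads outside genes. They held 8406 and 7461 genes with at least 10 reads, where the study asked for more than 8500 high coverage genes. With the 6 libraries above 1500000 reads, 0 genes passed an FDR of 0.1 in edgeR and 949 had an unadjusted p below 0.05. Every central library was shallower than every endosteal library (exact two-sided permutation test over libraries, p = 0.0286, the smallest that 4 against 4 allow, and 0.0857 after Benjamini-Hochberg adjustment over 9 library measures). Genes with at least 10 reads numbered 12502 ± 1357 in endosteal and 9366 ± 1698 in central libraries (mean ± SD, n = 4 each, exact permutation p = 0.0857, adjusted p = 0.129). After every library was thinned at random to the 826487 reads of the smallest, they numbered 7859, 9177, 9140 and 9140 in endosteal and 7619, 8284, 7461 and 8466 in central libraries, so that endosteal library A lay among the central ones. The 100 most counted genes of a library took 22.5, 23.6, 28.4 and 25.5% of its reads in endosteal and 31.6, 30.0, 31.1 and 28.7% in central libraries, with no overlap between the groups (exact permutation p = 0.0286, adjusted p = 0.0857). Reads on spike-in RNAs came to 2.98, 1.27, 0.805 and 0.192% in endosteal libraries, to between 3.43 and 7.10% in central libraries A to C and to 0.421% in central library D, so that library D of each group lay under 0.5% and the other 6 over it. Mitochondrial genes took 5.74% of the reads in endosteal and 7.12% in central libraries on average (exact permutation p = 0.0571, adjusted p = 0.129). The libraries carry no molecular identifiers, so amplified copies of a molecule are counted as separate reads.

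**Figure D1:**
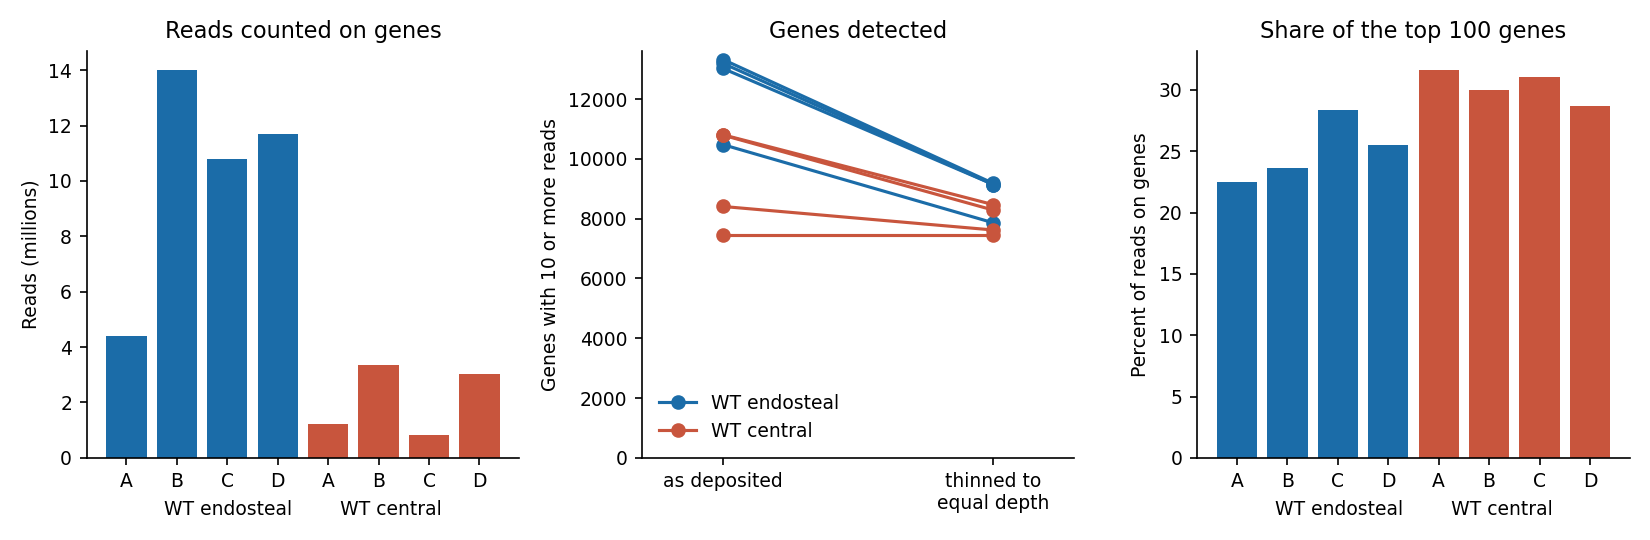
Sequencing depth and complexity of the 8 WT libraries: reads counted on genes (left, 1 bar a library), genes with 10 or more reads before and after thinning every library to 826487 reads (middle, 1 line a library) and the share of reads on the 100 most counted genes (right, percent). The central libraries are the shallower ones, and the gap in detected genes narrows after thinning.

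The sort gate could be checked against marker genes. Kit, the stem cell factor receptor of the gate, was found at 801, 669, 777 and 547 CPM (read counts scaled to the TMM-adjusted size of a library) in endosteal and at 491, 688, 550 and 665 CPM in central libraries. The HSC transcription factor gene Hlf was found at 618, 543, 320 and 284 CPM in endosteal and at 412, 516, 331 and 312 CPM in central libraries. Slamf1, which encodes CD150, was found at 33.8, 44.8, 34.1 and 131 CPM in endosteal and at 6.34, 14.9, 68.1 and 29.2 CPM in central libraries. Cd48, which the gate selects against, had at most 17.4 CPM in any WT library. Of marker lists of other cells, the 4 T cell genes summed to at most 0.911 CPM in a WT library.

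Central library D stood apart by neutrophil transcripts. The 7 neutrophil genes summed to 14.7, 0, 0.982 and 1.11 CPM in endosteal libraries A to D and to 1.81, 12.5, 9.34 and 3241 CPM in central libraries A to D. In central library D the granule and calcium-binding protein genes S100a8, S100a9, Camp, Ltf and Ngp had 2564, 2363, 1980, 1495 and 1155 counts, whereas Elane and Mpo had 0. The 4 B cell genes summed to 35.8, 74.1, 97.2 and 18.5 CPM in endosteal and to 113, 8.20, 30.7 and 260.4 CPM in central libraries, again with central library D the highest. In central library C the macrophage gene Lyz2 reached 2426 CPM and the stromal gene Pdgfrb had 223 counts, and in endosteal library C the osteoblast gene Col1a2 had 579 counts. With pools of cells, a few cells of another type and RNA carried in from outside the pool cannot be told apart. Without central library D, among the genes named by the rules or after their values were seen, and with unadjusted p below 0.05 in edgeR, Mnt, Spi1, Cdk4, Gp9, E2f1, Gapdh, Top2a, Ccnb1 and S100a9 had p-values of 0.0502, 0.0535, 0.0611, 0.0711, 0.0733, 0.0802, 0.103, 0.107 and 0.839. With all 8 libraries their log2 fold changes were, in that order, -1.24, 1.86, 0.94, 2.89, 1.93, 2.79, -1.39, -3.11 and -6.71. Without central library D they were -1.20, 1.81, 0.94, 2.83, 1.85, 2.74, -1.13, -2.32 and -0.41. Foxo1, Txnip, Slbp and Klf6, which had p-values above 0.05 with all 8 libraries, had p-values of 0.0474, 0.0461, 0.0232 and 0.0338 without it.

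Across genes, the libraries of the endosteal group resembled each other more than those of the central group. Over the 2227 genes with a mean of at least 100 CPM, called well-counted here, Spearman's rho between CPM of 2 libraries had a median of 0.62 over the 6 endosteal pairs, of 0.46 over the 6 central pairs and of 0.46 over the 16 pairs of an endosteal with a central library. The pairs share libraries and the depth differs between the groups, so these values are given as a description.

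The test across genes asked which of them differ between HSCs of the 2 compartments. With edgeR's quasi-likelihood test, 0 of 11181 genes (0%) passed a Benjamini-Hochberg FDR of 0.1, and the smallest FDR was 0.117. At an unadjusted p under 0.05 stood 882 genes (7.89%), 495 of them higher in endosteal HSCs (4.43%) and 387 lower (3.46%). DESeq2's Wald test, run on the same genes, called 208 of the 10566 genes to which it gave an adjusted p (1.97%), 108 higher and 100 lower, and 49 of these 208 were well-counted as defined above. Without its filter on low counts, tried after the data were seen, DESeq2 called 606 of 13486 genes (4.49%). The median log2 fold change over all genes tested was 0.03 (endosteal minus central), and 5421 genes (48.5%) had a negative value. The levels and differences below are relative to the total of a library, so a difference in RNA per cell does not enter them.

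Among the well-counted genes the balance went the other way. Of these 2227 genes, 19.9% of those tested, 277 had an unadjusted p below 0.05 (12.4%), with 102 higher (4.58%) and 175 lower (7.86%) in endosteal HSCs. Their median log2 fold change was -0.10, and 1259 of them (56.5%) had a negative value. The groups did not overlap for 186 well-counted genes (8.35%), 84 higher (3.77%) and 102 lower (4.58%) in endosteal HSCs, against 720 (6.44%) of all genes tested, 468 higher (4.19%) and 252 lower (2.25%). In the most abundant class, of 1000 CPM and above, 23 of 59 genes (39%) had a p under 0.05, 7 higher and 16 lower. From 100 to under 1000 CPM it was 254 of 2168 genes (11.7%), from 10 to under 100 CPM 518 of 7547 (6.86%, 330 higher and 188 lower), and under 10 CPM 87 of 1407 (6.18%, 63 higher and 24 lower). The median standard error of the log2 fold change was 0.23 in the most abundant class and 1.28 in the least abundant one. Of the 22 well-counted long noncoding genes, 0 were higher and 9 were lower at that p, with a median of -0.52, against 98 higher and 154 lower of 2141 protein-coding genes, with a median of -0.09.

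**Figure D2:**
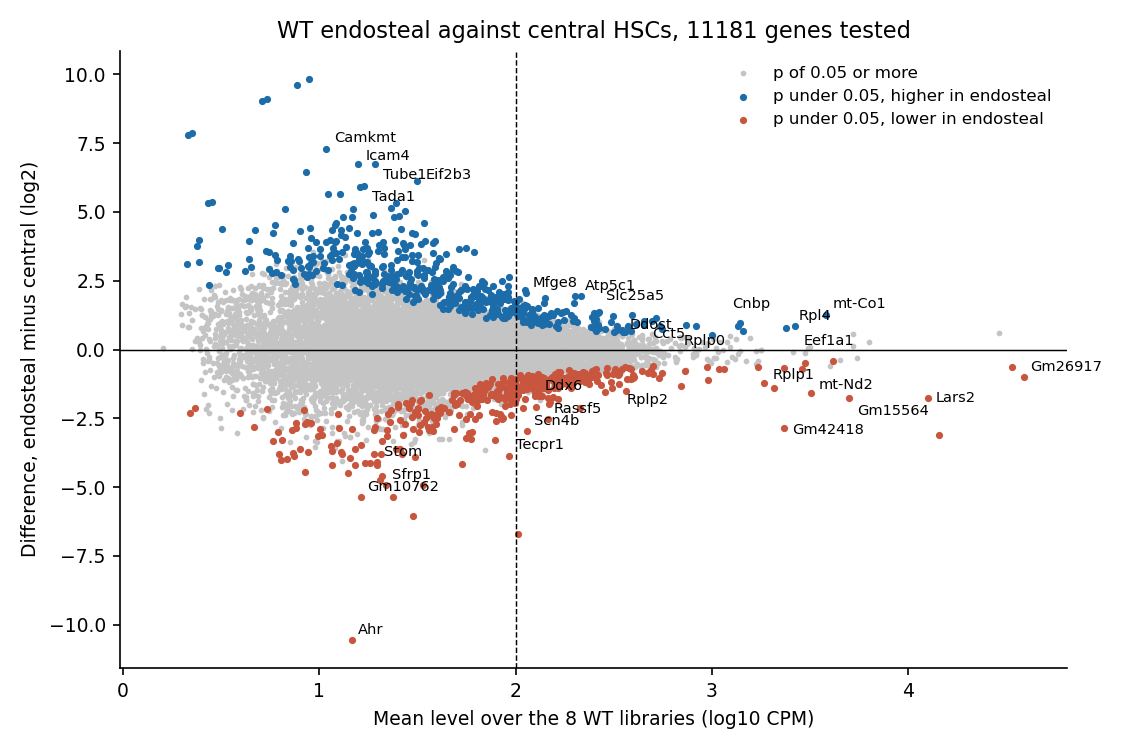
Log2 difference between WT endosteal and central HSCs (y axis) against the mean level over the 8 libraries (x axis, log10 CPM), 1 point a gene for the 11181 genes tested, coloured where edgeR's unadjusted p is under 0.05. The dashed line marks 100 CPM. Right of it the spread is narrow and the coloured points lie mostly below 0 (175 of 277), whereas left of it they lie mostly above 0.

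The 10 well-counted genes named as higher in endosteal HSCs had various functions, and the gene lists of these functions are described further below. The mitochondrially encoded mt-Co1, a catalytic subunit of cytochrome c oxidase (chromosome M of GRCm38, 5328 to 6872), had 4072, 5771, 7179 and 4601 CPM in endosteal and 2431, 2774, 1460 and 2292 CPM in central libraries. All endosteal values lay above all central ones, 5406 ± 1379 against 2239 ± 557 CPM, with a log2 fold change of 1.27 (SE 0.23, edgeR FDR = 0.161, DESeq2 FDR = 0.0364). Atp5c1, the gamma subunit of the ATP synthase, encoded on chromosome 2 (10056016 to 10080510), had 399, 322, 321 and 228 CPM in endosteal and 123, 89.3, 42.7 and 74.9 CPM in central libraries. The groups did not overlap, and the log2 fold change was 1.94 (SE 0.39, edgeR FDR = 0.225, DESeq2 FDR = 0.00552). Slc25a5, which exchanges ADP and ATP across the inner mitochondrial membrane (chromosome X, 36795651 to 36798807), had 357 ± 39.5 CPM in endosteal and 142 ± 19.1 CPM in central libraries, a log2 fold change of 1.34.

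Some of the 10 genes act in translation. Eef1a1, the elongation factor that brings aminoacyl-tRNA to the ribosome (chromosome 9, 78478449 to 78489151), had 3616, 3172, 3612 and 3265 CPM in endosteal and 1907, 2363, 1538 and 1772 CPM in central libraries. Rpl4, a protein of the large ribosomal subunit (chromosome 9, 64173375 to 64178666), had 2823, 2813, 3139 and 3270 CPM against 1649, 1783, 1832 and 1774 CPM. Both were tightly spaced within each group and separated between them, by 0.85 (SE 0.18) for Eef1a1 and 0.77 (SE 0.17) for Rpl4 on the log2 scale, each at an edgeR FDR of 0.272. Rplp0, the base of the ribosomal stalk that recruits elongation factors, had 1744 ± 105 against 974 ± 148 CPM. Cnbp, a nucleic acid-binding protein, had 1848 ± 216 against 943 ± 227 CPM, Cct5, a subunit of the chaperonin that folds actin and tubulin, 603 ± 152 against 293 ± 24.9 CPM, and Ddost, a subunit of the oligosaccharyltransferase of the endoplasmic reticulum, 436 ± 94.6 against 187 ± 40.3 CPM. Mfge8, a secreted bridge between dying cells and phagocytes, had 164, 233, 135 and 195 CPM in endosteal and 53.4, 74.1, 18.7 and 28.5 CPM in central libraries, a log2 fold change of 2.05 (SE 0.51, edgeR FDR = 0.343, DESeq2 FDR = 0.0200).

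The well-counted genes that were lower in endosteal HSCs included transcripts that resemble ribosomal RNA. The smallest p of all genes was that of the long noncoding gene Gm42418 (chromosome 17, 39846958 to 39848788), with 903, 481, 438 and 435 CPM in endosteal and 5669, 2248, 6489 and 1897 CPM in central libraries. The log2 fold change was -2.85 (SE 0.41, edgeR FDR = 0.117, DESeq2 FDR = 4.15e-07). Gm42418 and the neighbouring Gm26917 (39843013 to 39846341) lie at a copy of the ribosomal RNA genes, as background, and Gm42418 overlaps the gene CT010467.1 on the opposite strand by 1244 bases. Reads were counted without regard to strand and left out where they fell on several genes, so reads inside the overlap could be assigned to neither gene. CT010467.1 had between 14.8 and 145 counts for each count of Gm42418 in endosteal and between 2.95 and 13.9 in central libraries, so the counts of the pair did not stay in 1 ratio. With the CPM of Gm42418, these ratios put CT010467.1 above every central library in endosteal libraries B, C and D. In endosteal library A it lay below all central ones, so CT010467.1 did not share the direction of Gm42418. Gm26917 had the highest mean level of the genes named here, with 20226, 14851, 31138 and 36399 CPM in endosteal and 45780, 45765, 56203 and 59520 CPM in central libraries, a log2 fold change of -1.01 (SE 0.23).

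Lars2, which encodes the mitochondrial leucyl-tRNA synthetase (chromosome 9, 123366927 to 123462666), had 10215, 3762, 3671 and 5137 CPM in endosteal and 23291, 21244, 20100 and 13187 CPM in central libraries. The groups did not overlap, and the log2 fold change was -1.77 (SE 0.30, edgeR FDR = 0.142, DESeq2 FDR = 0.00114). The antisense gene Gm15564 on chromosome 16 had the same log2 fold change of -1.77. The annotated transcripts of the pair share a run of 52 bases on the same strand, longer than the 50-base reads, and Lars2 had between 2.41 and 2.70 counts for each count of Gm15564 in all 15 libraries used. The counts of either gene are therefore uncertain as a measure of its own transcript.

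Further genes with lower levels in endosteal HSCs were of varied function. mt-Nd2, a subunit of respiratory complex I (chromosome M, 3914 to 4951), had 2491, 1200, 1111 and 1594 CPM in endosteal and 4572, 4633, 6365 and 3501 CPM in central libraries, a log2 fold change of -1.58 (SE 0.27, edgeR FDR = 0.142, DESeq2 FDR = 0.00185). Rplp1 and Rplp2, the acidic proteins that sit on the stalk base encoded by Rplp0, had 1112 ± 406 against 2574 ± 483 CPM and 400 ± 105 against 990 ± 318 CPM. Scn4b, a sodium channel beta subunit, had 26.0 ± 14.3 CPM in endosteal and 374, 46.8, 270 and 123 CPM in central libraries, and Rassf5, a Ras and Rap1 effector in lymphocyte adhesion, had 45.2, 15.8, 20.3 and 91.9 CPM against 303, 331, 120 and 238 CPM. Their central values spread over a wide range but stayed above every endosteal value. Ddx6, a helicase of mRNA decay bodies, had 61.8 ± 21.2 against 200 ± 42.4 CPM.

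Outside the rule that chose these genes, and picked after its values were seen, stood Slc34a2, a sodium-phosphate cotransporter of epithelia (chromosome 5, 53038081 to 53071664). It took 47198, 6003, 37947 and 12136 CPM in central libraries and 6091, 1276, 3292 and 1335 CPM in endosteal libraries. Central library B lay just below endosteal library A, so the groups overlapped, and the log2 fold change was -3.11 (SE 0.64, edgeR FDR = 0.240, DESeq2 FDR = 9.86e-05). In libraries labelled Gfra2-/- the log2 fold change of Slc34a2 was -0.47.

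**Figure D3:**
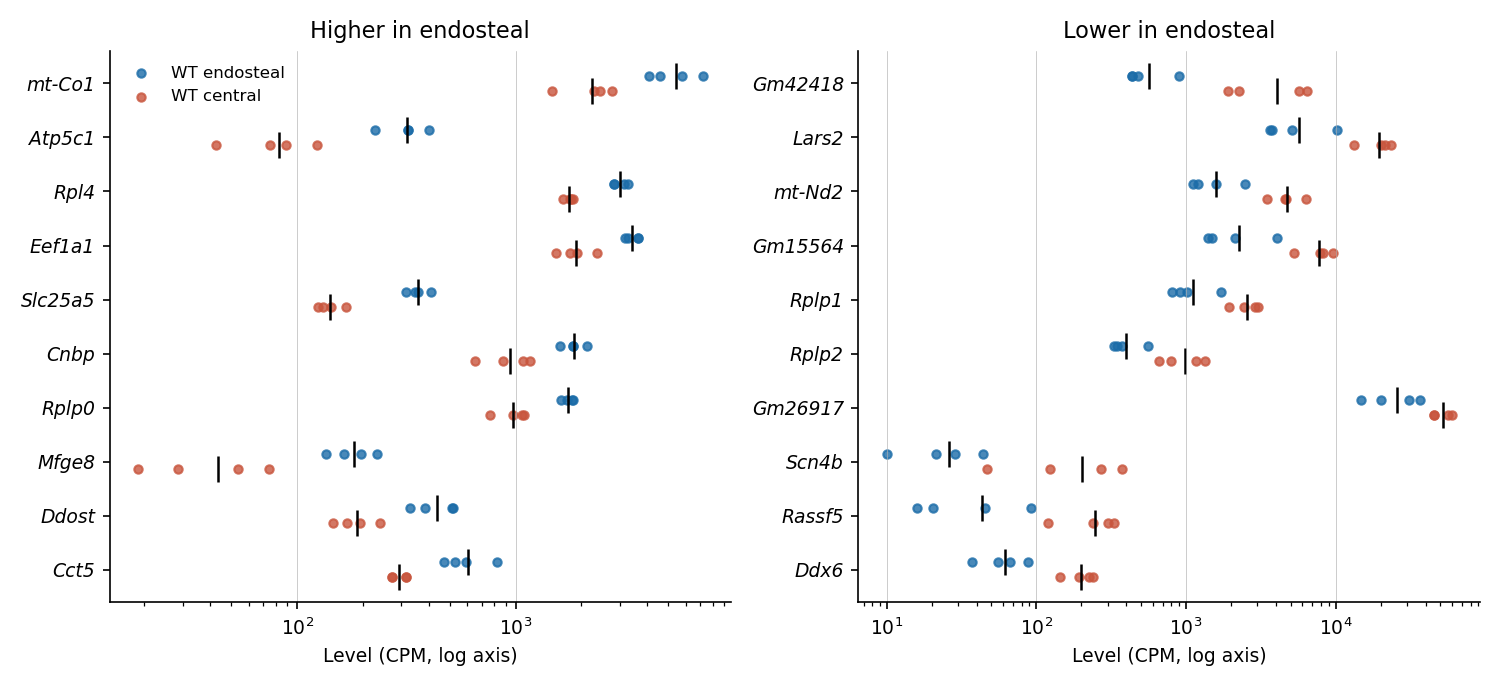
Levels (CPM, log axes) of the 10 well-counted genes with the smallest p in each direction whose WT groups do not overlap, 1 point a library, with endosteal libraries above central ones in each row and the mean as a black line. Left, genes higher in endosteal HSCs; right, genes lower. Both groups of Rpl4 are tight, whereas the central values of Gm42418 and Scn4b spread widely.

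At lower levels the data held genes that were counted in one compartment and nearly missing from the other. Camkmt, a calmodulin methyltransferase (chromosome 17, 85090552 to 85458588), had 113, 466, 104 and 242 counts in endosteal libraries and 0, 0, 0 and 1 in central ones. The ratio of the pooled counts per read was 191. Icam4, the erythroid adhesion molecule, had 30, 725, 475 and 343 counts against 1, 1, 0 and 0 (ratio 162). Tube1, epsilon-tubulin, had 403, 343, 333 and 31 against 2, 0, 0 and 0 (ratio 115). Tada1, a subunit of the SAGA chromatin complex, had 162, 291, 468 and 396 counts against 0, 1, 2 and 0 (ratio 90.6). Eif2b3, a subunit of the exchange factor of translation initiation, had 189, 1224, 290 and 1238 counts against 1, 6, 0 and 1, a log2 fold change of 6.12 (SE 1.08). The 5 genes were picked for a large difference without overlap and passed the filter on low counts through the endosteal libraries. No FDR or interval is given for them. All 5 genes were counted in each of the 4 WT endosteal libraries, at 30 counts or more, and none passed 6 counts in a WT central library. In libraries labelled Gfra2-/- the log2 fold changes of Camkmt, Icam4, Tube1, Eif2b3 and Tada1 were 0.33, -0.98, 0.36, 0.46 and 1.84. Central libraries A to C there held 336, 104 and 364 counts of Icam4 and 398, 151 and 249 of Tube1. They held 255, 321 and 109 counts of Eif2b3, 239, 106 and 22 of Tada1, and 0, 150 and 11 of Camkmt.

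Ahr, the aryl hydrocarbon receptor (chromosome 12, 35497974 to 35535038), showed the reverse. It had 0 counts in each endosteal library and 74, 33, 15 and 58 counts in central libraries A to D, and was the one tested gene at 0 in all endosteal libraries, whereas 6 tested genes were at 0 in all central ones. In the WT fit Ahr passed the filter on low counts through the central libraries only, so no FDR or bound is given. Libraries labelled Gfra2-/- held 2, 141, 235 and 0 counts of Ahr in endosteal and 0, 142, 120 and 13 in central ones. Tecpr1, which acts in the fusion of autophagosomes with lysosomes, was read with 29, 196, 145 and 191 counts in the endosteal libraries, against 429, 411, 15 and 474 in the shallower central ones. Central library C had the fewest, 15, but per read it still lay above the endosteal group, and the log2 fold change was -3.85 (SE 0.77, edgeR FDR = 0.225, DESeq2 FDR = 1.37e-05). Sfrp1, a secreted Wnt inhibitor, had 1, 74, 3 and 1 counts against 44, 87, 9 and 266, Stom, the membrane protein stomatin, 24, 4, 27 and 4 against 12, 142, 64 and 28, and Gm10762 4, 2, 2 and 22 against 59, 44, 4 and 162. In pools of 30 cells, fewer cells with a transcript and less of it per cell cannot be told apart.

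Genes of the cytosolic ribosome did not move as a block. Of 47 tested genes for proteins of the large subunit, 17 had a positive and 30 a negative log2 fold change, with a median of -0.27, and 4 were higher and 9 lower with unadjusted p below 0.05. Of 32 genes for the small subunit, 13 were positive and 19 negative with a median of -0.28, and 1 was higher and 7 were lower. Without central library D the medians were -0.39 and -0.42. The median of all genes tested was 0.03, with 4.43% higher and 3.46% lower at that p. In the 2 libraries with under 0.5% spike-in reads, endosteal D and central D, the median of the large subunit was 0.05. That of the small subunit was -0.16. Reads of these genes may also match processed pseudogenes, so single values are uncertain.

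Direction went with the length of the protein. The 40 ribosomal protein genes with a coding length up to their median of 453 bases had a median log2 fold change of -0.36, with 8 positive and 32 negative values, and 0 higher and 12 lower with unadjusted p below 0.05. The 39 longer ones had a median of 0.09, with 22 positive and 17 negative values, and 5 higher and 4 lower at that p. At that p stood 4.43% higher and 3.46% lower of all genes tested, and 4.58% higher and 7.86% lower of the well-counted ones. Rpl4, with 1257 coding bases, had a log2 fold change of 0.77, and Rplp0, with 951, one of 0.84, whereas Rpl39, with 153, had one of -1.05, Rpl38, with 210, of -1.28, and Rplp1, with 342, of -1.21. An exception was Rpl8, with 771 bases and a log2 fold change of -0.67. Spearman's rho between coding length and log2 fold change was 0.38 over the 79 genes, which share their libraries and are not independent replicates. In libraries labelled Gfra2-/- the short genes had a median of -0.47 and the long ones one of -0.24, with a rho of 0.32. Over the 2141 well-counted protein-coding genes rho was -0.04, and the medians of 5 equal classes from the shortest to the longest coding length were -0.13, 0.01, -0.04, -0.13 and -0.16.

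**Figure D4:**
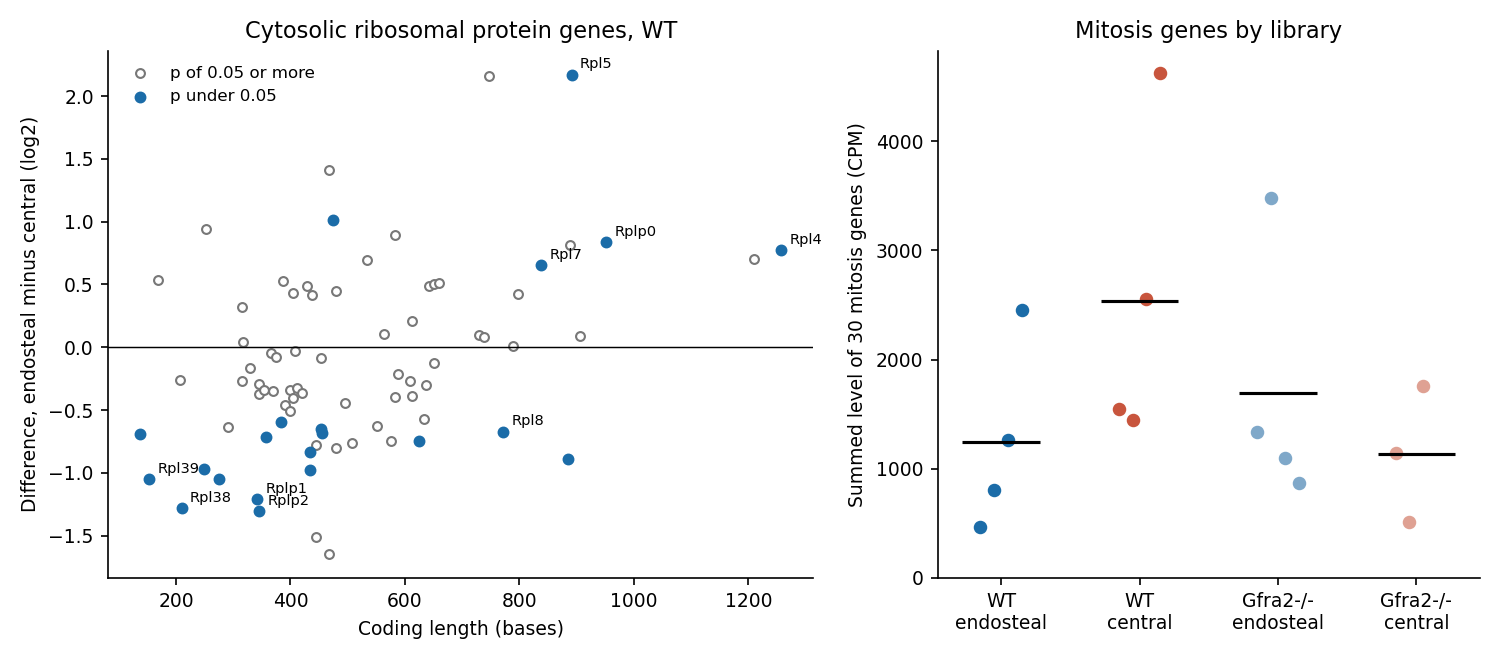
Left, log2 difference between WT endosteal and central HSCs (y axis) against coding length in bases (x axis) for 79 cytosolic ribosomal protein genes, filled where edgeR's unadjusted p is under 0.05. Short genes lie mostly below 0 (32 of 40) and longer ones on both sides. Right, summed level (CPM) of 30 mitosis genes, 1 point a library with the group mean as a line: central library D is the highest of all at 4622 CPM, and the compartments overlap both in WT libraries and in those labelled Gfra2-/-.

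Mitochondrial genes were followed as groups, by where they are encoded, and differences between these groups were not tested. Of 12 tested protein genes of the mitochondrial genome, 2 had a positive and 10 a negative log2 fold change, with a median of -0.51, and with unadjusted p below 0.05 mt-Co1 was higher and mt-Co3, mt-Nd2, mt-Nd4, mt-Nd5 and mt-Nd6 were lower. These are abundant genes, and of all 59 genes of 1000 CPM and above 39% had such a p, 7 higher and 16 lower. mt-Nd6, the complex I subunit read from the other strand, had 2033, 727, 634 and 1183 CPM in endosteal and 3235, 2503, 3933 and 2256 CPM in central libraries, and mt-Nd4 had 2183 ± 356 against 3600 ± 530 CPM. The groups did not overlap for either. Strand was not kept in counting and nuclear copies of mitochondrial sequence exist, so the split between neighbouring mitochondrial genes is uncertain. In the pair of libraries with under 0.5% spike-in reads, 7 of the 12 genes were lower, with a median of -0.28.

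Of 77 nuclear genes for subunits of the respiratory chain and ATP synthase, 38 were positive and 39 negative (median -0.00, or -0.14 without central library D). Of these genes 7 were higher and 4 lower with unadjusted p below 0.05, against 4.43% higher and 3.46% lower of all genes tested. Of the 77, 51 were well-counted, and of all well-counted genes 4.58% were higher and 7.86% lower. The 7 were Atp5c1, Atp5b, Cyc1, Ndufs3, Sdhb, Uqcrc1 and Uqcrc2, and the 4 lower ones Atp5e, Atp5mpl, Ndufa2 and Ndufa6. Ndufa2, of complex I, had 189 ± 65.4 CPM in endosteal and 544 ± 258 CPM in central libraries, with no overlap and a log2 fold change of -1.52 (SE 0.38, edgeR FDR = 0.343, DESeq2 FDR = 0.0200). Sdhb, the iron-sulphur subunit of succinate dehydrogenase, had 203, 110, 174 and 130 CPM against 27.2, 89.6, 34.7 and 34.3 CPM, again without overlap.

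Genes for mitochondrial ribosomal proteins were on the endosteal side more often. Of 76 tested, 55 were positive and 21 negative, with a median of 0.33, and 3 of the 76 were higher and 0 lower with unadjusted p below 0.05, no larger a share than the 4.43% higher of all genes tested. Mrpl4 had 50.7, 48.4, 57.2 and 61.5 CPM in endosteal and 13.6, 3.04, 10.7 and 5.77 CPM in central libraries, a log2 fold change of 2.75 (SE 0.80, edgeR FDR = 0.449, DESeq2 FDR = 0.0211). The 11 of these genes that were well-counted had a median of -0.11. Of 34 genes of the tricarboxylic acid cycle and fatty acid oxidation, 21 were positive (median 0.26), with Acadvl, Hadh, Mdh2 and Sdhb higher and 0 lower at that p. Hadh, an enzyme of fatty acid beta-oxidation, had 156 ± 82.5 against 56.7 ± 12.7 CPM.

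Genes of the proteasome, which degrades ubiquitin-tagged proteins, leaned the same way. Of 34, 23 were positive and 11 negative, with a median of 0.40 against 0.03 over all genes, and Psma1, Psmb2, Psmd2 and Psmd6 were higher and 0 lower with unadjusted p below 0.05, against 4.43% higher and 3.46% lower of all genes tested. Psmd6, a subunit of the regulatory lid (chromosome 14, 14112174 to 14120984), had 222, 149, 150 and 117 CPM in endosteal and 28.1, 27.3, 18.7 and 27.8 CPM in central libraries. Every endosteal value was far above every central one, with a log2 fold change of 2.64 (SE 0.47, edgeR FDR = 0.142, DESeq2 FDR = 4.32e-05). Psmd2, a subunit of the base of the same particle, had 174 ± 60.8 against 76.7 ± 31.8 CPM. In libraries labelled Gfra2-/- the median of the list was 0.28. Thinned to equal depth, the WT median was 0.30.

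Of 38 genes for nucleolar ribosome assembly, 22 were positive (median 0.19), with Nop56, Rrp9, Utp3 and Wdr74 higher and 0 lower with unadjusted p below 0.05, and the median was 0.00 without central library D. For this list and those of translation factors, chaperones and splicing genes that follow, the shares over all genes tested were 4.43% higher and 3.46% lower. Nop56, a core protein of box C/D small nucleolar RNPs, had 36, 2635, 2256 and 1077 counts in endosteal libraries and 34, 37, 12 and 86 in central ones, and per read endosteal library A, at 8.70 CPM, was below all central ones. Of 35 translation factors 16 were positive (median -0.04, or -0.14 without central library D), with Eef1a1, Eif5a and Eif6 higher at that p. Eif5a, which relieves stalled ribosomes, had 923, 931, 947 and 1017 CPM against 561, 451, 350 and 690 CPM, a log2 fold change of 0.89 (SE 0.25) at an edgeR FDR of 0.438. Of 25 chaperones and genes of the unfolded protein response 9 were positive (median -0.17), with Xbp1, a transcription factor of that response, at 176 ± 40.3 against 65.3 ± 40.4 CPM, and Dnajb1, a co-chaperone of heat shock, at 108 ± 21.9 against 248 ± 165 CPM. Of 45 splicing genes 24 were positive (median 0.03, or 0.08 without central library D), 2 were higher and 4 lower, among them Sf3b1, the branch site-binding splicing factor, at 697 ± 207 against 413 ± 65.0 CPM.

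For genes that define HSCs the data did not resolve differences, and the standard errors were wide for the rarer ones. Of 18 tested members of the list of surface and gate genes 15 were positive, with a median of 0.20. Ctsf, on the list but neither a surface nor a gate gene, was the only one with unadjusted p below 0.05, against 7.89% of all genes tested. Kit had a log2 fold change of 0.22 (SE 0.24), Ly6a, which encodes Sca1, -0.50 (SE 0.47), Slamf1, which encodes CD150, 1.05 (SE 0.83) and Procr, the endothelial protein C receptor, 0.00 (SE 0.57). For Mecom and Hlf, which maintain HSC self-renewal, the values were -0.63 (SE 0.48) and 0.17 (SE 0.32). The groups overlapped for all 6 of these genes and the edgeR p-values lay between 0.214 and 0.998. Ctsf, a lysosomal cysteine protease, had 34.8, 47.4, 11.5 and 12.2 CPM in endosteal and 38.0, 73.5, 378 and 76.6 CPM in central libraries, with central library C the highest. For Gfra2 itself the endosteal libraries held 0, 0, 0 and 1 counts and the central ones 0, 0, 4 and 0, too few to be tested.

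Of 30 HSC transcription factor genes, 12 were positive (median -0.10, or -0.24 without central library D), and 3 were higher and 3 lower with unadjusted p below 0.05, against 4.43% higher and 3.46% lower of all genes tested. Of the 30, 22 were well-counted, and of all well-counted genes 4.58% were higher and 7.86% lower. The higher ones were Gata1, Nfe2 and Spi1, which drive erythroid, megakaryocytic and myeloid differentiation. For Gata1 (chromosome X, 7959260 to 7978071) the endosteal libraries held 258, 144, 725 and 736 counts, or 62.3, 9.35, 64.8 and 58.6 CPM. The central ones held 6, 1, 1 and 1 counts, or 5.43, 0.304, 1.33 and 0.339 CPM. The groups did not overlap, with a log2 fold change of 4.85 (SE 1.24). Gata1 passed the filter on low counts through the endosteal libraries, so no FDR is given. Nfe2 and Spi1 were picked after their values were seen. Nfe2 had 462, 417, 371 and 499 CPM against 273, 286, 246 and 324 CPM, and Spi1, which encodes PU.1, 171, 39.8, 56.3 and 56.8 against 37.1, 24.0, 5.34 and 22.4 CPM, without overlap for either. Among the lower ones were Cbfb, a partner of RUNX proteins, and Ikzf1, the lymphoid factor Ikaros, the latter at 215, 157, 236 and 198 CPM against 545, 445, 170 and 362 CPM, with overlap. Of 5 tested megakaryocyte markers 4 were positive (median 0.67, or 1.43 without central library D), with Gp9 at 184, 53.8, 15.6 and 0.876 CPM in endosteal and 1.81, 15.2, 8.01 and 8.48 CPM in central libraries. Vwf, the von Willebrand factor gene and the one well-counted marker of the 5, went the other way with a log2 fold change of -0.48 (SE 0.38), at 142, 117, 144 and 156 CPM against 263, 191, 230 and 94.6 CPM. The 6 listed megakaryocyte markers summed to 368 ± 144 CPM in endosteal and 333 ± 145 CPM in central libraries. Whether cells closer to the megakaryocyte or erythroid lineage within the gate go with these values was not tested.

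Of 21 quiescence and FoxO genes 9 were positive (median -0.11, or -0.18 without central library D). With all 8 libraries 0 had an unadjusted edgeR p below 0.05 in either direction, against 7.89% of all genes tested. Cdkn1c, the cell cycle inhibitor p57, had 17.0 ± 17.9 CPM in endosteal and 151, 8.20, 62.7 and 60.4 CPM in central libraries, and the groups overlapped (log2 fold change -2.04, SE 1.06). Foxo3 had a log2 fold change of -0.64 (SE 0.47), Foxo1 of -1.83 (SE 0.93) and Txnip, a FoxO target that restrains glucose uptake, of -0.49 (SE 0.25). Cxcr4, the receptor for the niche chemokine CXCL12, had at most 17.4 CPM in any WT library.

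Most genes of mitosis had negative log2 fold changes, few of them with a small p, and the values depended in part on the D libraries. Of 29 tested, 3 had a positive and 26 a negative log2 fold change, with a median of -0.90, and Ccnb1, Kif11 and Top2a were lower and 0 higher with unadjusted p below 0.05, against 3.46% lower and 4.43% higher of all genes tested. Kif11 alone of the 3 kept such a p without central library D. In the 6 libraries with over 0.5% spike-in reads, Ccnb1, Kif11 and Top2a had unadjusted edgeR p-values of 0.0206, 0.0282 and 0.00972. Summed over 30 mitosis genes the level was 462, 804, 1259 and 2451 CPM in endosteal and 1545, 1443, 2552 and 4622 CPM in central libraries A to D, so the groups overlapped. They did not overlap in the 6 libraries with over 0.5% spike-in reads, and of the pair under it central library D was the higher. Without central library D, which carried the neutrophil transcripts, the median was -0.30 and 19 of the 29 genes were lower. In the 6 libraries with over 0.5% spike-in reads, without library D of either group, the median was -1.20, with 23 genes lower and 6 higher. Between the D libraries alone it was -0.89, with 22 genes lower and 7 higher. Top2a, the most abundant of them and named after its values were seen, encodes a DNA topoisomerase of dividing cells. It had 24.9, 138, 147 and 375 CPM in endosteal and 396, 351, 351 and 701 CPM in central libraries, a log2 fold change of -1.39 (SE 0.59), and -1.13 without central library D. Kif11, the motor that separates spindle poles, had 0.725, 17.9, 32.6 and 56.1 CPM against 44.4, 66.8, 278 and 141 CPM. Ccnb1, the mitotic cyclin B1, had 42.4 CPM in central library D and at most 14.7 CPM in any other WT library. Mki67, the proliferation marker, had 5.56, 135, 236 and 248 CPM against 93.2, 219, 231 and 620 CPM (log2 fold change -0.90, SE 0.80, and -0.25 without central library D). The mitosis list had a median of 0.64 in libraries labelled Gfra2-/-, with 23 of 30 genes positive. The summed levels there were 1333, 3477, 1099.7 and 868 CPM in endosteal and 1146, 515 and 1757 CPM in central libraries, which overlap, with endosteal library B, one of those with Gfra2 counts and with erythroid transcripts described further below, the highest. The difference between the genotypes was not tested for the list.

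Gene lists of the earlier phases of the cycle had medians near that of all genes with all 8 libraries, and other medians in parts of them. Of 39 genes of DNA replication 25 were positive (median 0.09, or 0.24 without central library D and -0.17 in the pair with under 0.5% spike-in reads), with 0 at an unadjusted edgeR p under 0.05 in either direction, and of 15 G1 cyclins, kinases and regulators 8 were positive (median 0.10, or -0.00 without central library D and 0.40 in the 6 libraries with over 0.5% spike-in reads), with Cdk4 and E2f1 higher at that p, against 4.43% of all genes tested. Cdk4, the G1 kinase, had 211, 840, 671 and 445 CPM in endosteal and 180, 298, 350 and 299 CPM in central libraries. Tyms, the thymidylate synthase, had 121 ± 46.6 against 61.2 ± 22.8 CPM. Cdk6 had a log2 fold change of 0.43 (SE 0.24), and Myc one of 1.01 (SE 0.60), with 131, 159, 117 and 139 CPM in endosteal and 131, 17.6, 94.8 and 29.8 CPM in central libraries. Of 17 immediate-early genes, which respond within minutes to signals and to cell dissociation, 5 were positive (median -0.70), and Fosl2 was lower at that p, with 148 CPM in central library C.

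Niche adhesion and signalling genes were described as 5 lists, with no test of a list. Of 28 genes of adhesion and homing 19 were positive (median 0.29, or 0.16 without central library D). Cdc42, a small GTPase of cell polarity, was higher with unadjusted p below 0.05 with 542, 1063, 765 and 447 CPM in endosteal and 339, 416, 336 and 456 CPM in central libraries, and 0 were lower. Of 28 genes of cytokine and TGF-beta signalling 12 were positive (median -0.21, or -0.13 without it), with Smad3, Il6st, Ski and Smad4, 4 of the 28, lower and 0 higher, against 3.46% and 4.43% of all genes tested. Smad3, which carries the TGF-beta signal to the nucleus, had 25.1, 24.5, 82.3 and 47.2 CPM against 202, 59.8, 195 and 163 CPM, and Il6st, the shared receptor gp130 of the interleukin-6 family, 37.7, 102, 56.9 and 13.3 against 234, 50.4, 210 and 120 CPM. Of 21 Notch genes 7 were positive (median -0.39). Rfng, a glycosyltransferase of Notch receptors, was at 54.9 ± 16.5 against 12.5 ± 4.36 CPM, without overlap, and Rbpj, the transcription factor of the pathway, at 37.1 ± 11.4 against 115 ± 101 CPM. Of 11 genes of the Myc network 3 were positive (median -0.45), and Mnt, a Myc antagonist, was lower without overlap, at 48.1 ± 9.97 against 114 ± 39.1 CPM. Of 39 genes for neural and GDNF family receptors 2 were tested, and the groups overlapped for both.

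The remaining groups were mixed. Of 30 genes of hypoxia and glycolysis 17 were positive (median 0.17), with Pfkl and Gapdh higher and Hk2 lower with unadjusted p below 0.05, where 4.43% of all genes tested were higher and 3.46% lower. Gapdh had at most 15.8 CPM in any WT library, a level that its many pseudogenes make uncertain. Of 34 interferon and MHC genes 17 were positive (median -0.03, or 0.01 without central library D), with H2-D1 higher and Irf1, Irf8, Ifit2 and H2-Aa lower. Irf1 had 38.7, 42.3, 56.0 and 142 CPM in endosteal and 108, 193, 183 and 286 CPM in central libraries. Irf8, of monocytes and dendritic cells, rested on central libraries B and C, with 29.2 and 222 CPM. Of 24 antioxidant genes 14 were positive (median 0.13, or 0.21 without central library D), with Cat, the catalase that breaks down hydrogen peroxide, lower at 140 ± 23.2 against 335 ± 198 CPM. Of 36 genes of autophagy and lysosomes 20 were positive (median 0.07, or 0.25 without it), with Tfe3, a transcription factor of lysosome biogenesis, at 7.14 ± 7.69 against 57.5 ± 29.7 CPM. Of 35 chromatin regulators 17 were positive (median -0.02, or 0.01 without central library D), with the histone methyltransferase genes Kmt2d at 261 ± 144 against 99.4 ± 22.8 CPM and Ezh1 at 22.4 ± 10.8 against 81.2 ± 48.2 CPM.

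Long noncoding RNAs leaned to the central side. Of 16 nuclear and long noncoding RNAs 4 were positive and 12 negative (median -0.56, or -0.19 without central library D), and Meg3, Epb41l4aos, Snhg8, Gas5 and Malat1 were lower and 0 higher with unadjusted p below 0.05, against 3.46% lower and 4.43% higher of all genes tested. Meg3, a maternally expressed imprinted RNA, had 8.61 ± 7.74 CPM in endosteal and 91.4, 68.3, 42.7 and 64.8 CPM in central libraries. The groups did not overlap, and Meg3 had a log2 fold change of -2.95 (SE 0.88, edgeR FDR = 0.455, DESeq2 FDR = 0.0154), and of -3.37 in libraries labelled Gfra2-/-. Ppp1r9a, imprinted in some tissues, had 112 ± 25.3 against 256 ± 50.7 CPM. Of 13 imprinted genes 6 were positive (median -0.21, or -0.14 without central library D), with Meg3 and Ppp1r9a lower.

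Few markers of cells outside the gate could be tested. For osteoblast, stromal and T cell markers 0 genes had enough reads to be tested. Of 3 tested endothelial markers Kdr and Emcn were lower in endosteal HSCs with unadjusted p below 0.05, against 3.46% of all genes tested. Kdr had 128 CPM in central library A and at most 10.5 CPM in any other WT library. Emcn, also found on HSCs, had 57.5, 56.0, 88.1 and 62.3 CPM against 107, 294, 139 and 70.5 CPM. Pecam1, the third of them, which encodes an adhesion molecule of endothelial and blood cells, had a log2 fold change of 0.72 (SE 0.70) with overlap of the groups. S100a9, the tested neutrophil gene, had 801 CPM in central library D and at most 8.70 CPM in any other WT library. The tested macrophage markers Lyz2 and Cd68 had log2 fold changes of -0.73 (SE 0.56) and 0.89, the B cell marker Cd79b one of -0.46 (SE 0.89) and the erythroid marker Hbb-bt one of 0.49 (SE 0.83), with unadjusted edgeR p-values from 0.220 to 0.612. Of 5 tested sex-linked genes 3 were positive, with 0 at an unadjusted edgeR p below 0.05.

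**Figure D5:**
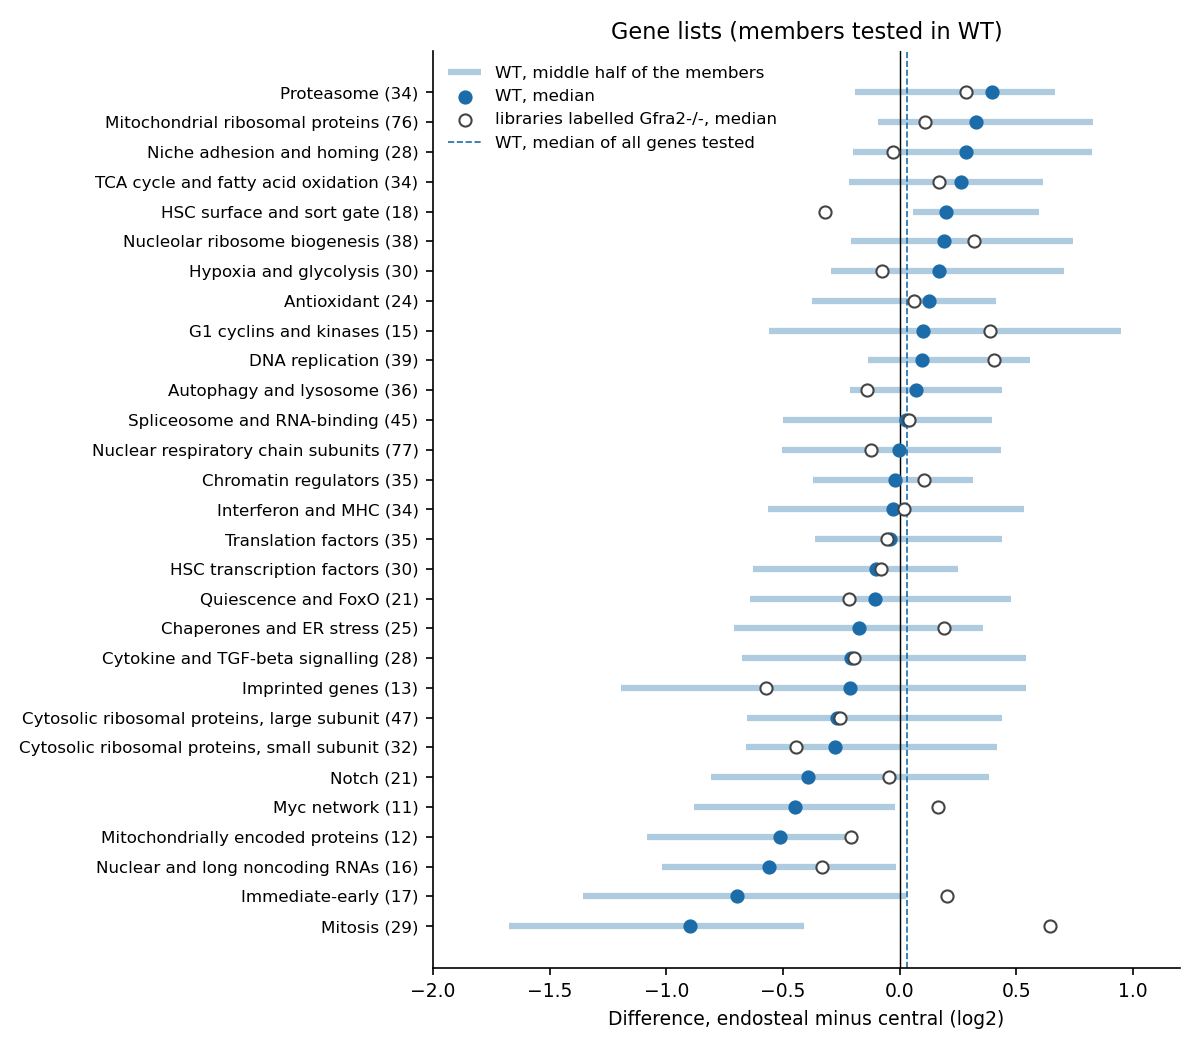
Median log2 difference between endosteal and central HSCs for each gene list, with the number of members tested in WT in brackets: filled points for WT, bars for the middle 50% of the members in WT, open points for libraries labelled Gfra2-/-. The dashed line is the WT median of all genes tested, 0.03. Of the lists plotted, proteasome genes have the highest WT median, 0.40, and mitosis genes the lowest, -0.90, with the open point on the other side of 0.

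The WT differences can be set beside those of the libraries labelled Gfra2-/-. In these libraries 664 of 13860 genes (4.79%) had an unadjusted edgeR p below 0.05 between the compartments. Of the 102 well-counted genes that were lower in WT endosteal HSCs without overlap, 77 (75.5%) were also below 0 there, with a median of -0.41, against 51.8% of all well-counted genes. Of the 84 that were higher without overlap, 49 (58.3%) were also above 0, with a median of 0.10, against 48.2% of all. The genotype by compartment interaction passed an FDR of 0.1 for 0 of 15416 genes (0%) with edgeR, with a smallest FDR of 0.523 and 1074 genes (6.97%) with unadjusted p below 0.05, whereas DESeq2 called 178. Rpl4, Eef1a1 and Rplp0 had log2 fold changes of -0.03, -0.06 and -0.14 in libraries labelled Gfra2-/-, and the interaction was estimated at 0.83 for Rpl4 and 0.93 for Eef1a1. As these genes were chosen on the WT values that the interaction also uses, the estimates are given with no test. Lars2, Gm15564, Rplp1 and Rps20, by contrast, had -1.64, -1.67, -1.01 and -0.74 there, close to their WT values, with interaction estimates between -0.19 and 0.04. Ahr, at 0 in WT endosteal HSCs, had a log2 fold change of 0.21 there. Every central library was shallower than every endosteal one in WT, whereas depth overlapped in the libraries labelled Gfra2-/-. Reads on genes there numbered 14214124, 18550008, 8519094 and 11985523 in endosteal and 14716308, 10079744 and 7649803 in central libraries. The part of depth in this comparison was not tested. The Gfra2 counts of endosteal libraries B and D labelled Gfra2-/-, 47 and 9, limit it further. Both also held transcripts of other cells. In library D the B cell genes summed to 1866 CPM and the erythroid genes to 602 CPM, against at most 333 and 168 CPM in any other library used. In library B the erythroid genes Car1 and Klf1 had 2345 and 562 counts, against at most 5 and 130 in any other library. Their part in the values of these libraries was not tested.

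The share of spike-in RNAs gave a second scale. With spike-ins in place of TMM, the median of all genes was 1.58 on the log2 scale, and 10177 of 11181 genes were positive. On that scale 705 genes were higher and 8 lower at an unadjusted edgeR p under 0.05, and 30 of the 113 named genes tested turned their sign, so all directions given above are relative to the other genes of a library. Whether the amount of RNA per pool or the amount of spike-in added differed was not tested.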

How the data were processed

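RNA was primed with oligo-dT, amplified by the Smart-seq2 protocol and sequenced as single 50-base reads. The authors aligned the reads to GRCm38 (mm10) with GSNAP, counted them per gene without strand with HTSeq (0.5.3p3), and deposited raw counts for 46078 genes, 92 spike-ins and 5 summary categories. Between 36.4% and 48.3% of the aligned WT reads fell on no gene or several genes and were left out. No labelled sample could be tied to 1 further column, which was left out. GENCODE M21 annotated 45229 of the genes.

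Counts were tested with edgeR 4.0.16 (R 4.3.3) by filterByExpr, TMM normalization and the quasi-likelihood test over the 8 WT libraries, with Benjamini-Hochberg adjustment. The interaction used all 15 libraries. CPM are counts scaled by the TMM-adjusted library total. DESeq2 1.42.0, the tool of the study, limma 3.58.1 voom, other scalings, filters and library subsets were alternatives. The fits were tested on simulated data. Library measures were compared by exact permutation tests (scipy 1.17.1).

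The gene lists (40, compiled by hand) and the rules were chosen with earlier results of these data known. Named were, in each direction, the 10 well-counted protein-coding or lncRNA genes of smallest p and the 5 with the largest difference from 10 to under 100 CPM, in both cases without overlap of the groups, the 2 members of each list with the smallest p, and 18 fixed genes. Further genes are marked as chosen after their values were seen. Values of some single genes are not reported here.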

Additional observations from a re-analysis of the deposited data

Results flagged for a closer look

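Dixon's test at the 95% level was applied to the 4 libraries of each WT group over 262 sets of values, of which chance alone picks out about 1 in 20. Among library measures, endosteal library A was far below the rest of its group in genes with at least 10 reads, 10474 before and 7859 after thinning to equal depth. Among named genes, the highest library of a group stood apart for Gm42418 in endosteal library A (903 CPM), Sfrp1 in endosteal library B (4.80 CPM), Ccnb1 and Rbpj in endosteal library D (6.05 and 54.1 CPM), Irf8 in endosteal library C (7.77 CPM) and Gfra2 in central library C (5.34 CPM). S100a9 stood apart in both groups, in endosteal library A (8.70 CPM) and in central library D (801 CPM). The lowest library stood apart for Gata1 and Mnt in endosteal library B (9.35 and 33.3 CPM), Mki67 in endosteal library A (5.56 CPM), and Psmd6 in central library C (18.7 CPM). The summed endothelial markers were lowest in endosteal library B, at 90.4 CPM. What sets these libraries apart was not tested.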

How the results depend on the processing

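No paired analysis was possible because the counts are given per library without a replicate number. The number of genes at an FDR of 0.1, 0 in the edgeR test reported, was 208 with DESeq2's Wald test, 58 with no filter on low counts, 11 with at least 10 counts required in every library, 4 after thinning to the smallest library, 22 with limma voom and sample quality weights, 22 with all 4 groups in one fit and 606 with DESeq2 without a filter, which was added after the data were seen. Leaving out each library gave 0 to 6, with 6 without endosteal library A and 1 without central library B or D. Genes with unadjusted p below 0.05, 882 in the test reported, numbered 2666 without a filter, 1920 with all 4 groups and 2062 with DESeq2 without a filter. The interaction, at 0 genes with edgeR, had 178 with DESeq2. The causes were not tested.

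Directions turned for some genes, and the causes were not tested. Relative to the median of all genes on the spike-in scale, log2 fold changes were -0.56 for Chrnb1, -0.35 for Eif2s3y, -0.19 for Kit, -0.73 for Procr and -0.12 for Hlf. With limma voom they were 0.15 for Lyz2, 0.44 for Cd79b, -0.070 for Cd48, -0.18 for Procr and -0.049 for Hlf. Cd48 and Procr had -0.15 and -0.12 with DESeq2, -0.11 and -0.12 with its size factors, and -0.12 and -0.10 with DESeq2 without a filter. In the 6 libraries with at least 1500000 reads on genes Lyz2 had 0.37 and Ddx3y 0.21, and with over 0.5% spike-in reads Hbb-bt had -0.19 and Cd79b 0.49. Leaving out each library gave -0.34 to 1.59 for Chrnb1, -3.51 to 1.43 for Xist, -0.997 to 0.40 for Lyz2, -0.90 to 0.22 for Cd79b, -0.90 to 1.44 for Cd48, -0.42 to 0.56 for Procr and -0.071 to 0.34 for Hlf. Of 31 gene lists followed over 20 settings, 16 had a median of the same sign in each, among them the proteasome (0.20 to 0.49), the mitochondrial ribosomal proteins (0.22 to 0.54), both subunits of the cytosolic ribosome, the mitochondrially encoded proteins (-0.80 to -0.34) and mitosis (-1.87 to -0.30). Depth limits what the central libraries can show for genes of low level.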
